A study of Mus musculus with 4 samples.

Results

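Mature CD4 single-positive thymocytes are the CD4 T cells of the thymus that have passed selection and are preparing to leave the organ. They were chosen here from their own transcript counts. A cell was taken if at least 2 transcripts of S1pr1 and Klf2 together, at least 1 of Cd4, Zbtb7b and Cd40lg together, at most 1 of Cd8a and Cd8b1 together and none of Nkg7, Foxp3, Trdc and Cd79a were counted in it. Transcripts were counted as unique molecular identifiers (UMIs), so that PCR copies of one molecule count once. Cells also needed at least 200 detected genes, at least 1500 UMIs and at most 10% of their UMIs from mitochondrial genes. The rule found 879 cells among the 31722 that passed these quality limits and the 57354 deposited. Control 1 gave 146 of them, control 2 gave 251, cKO 1 gave 204 and cKO 2 gave 278.

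Thymocytes from 2 pairs of control and cKO mice were profiled in 4 libraries, 2 of each genotype, by droplet sequencing of the 3′ ends of transcripts (10x Genomics, version 3 chemistry). Control animals (Tox4;F/F) had loxP sites around exons 4 to 6 of both Tox4 alleles and no Cre, and cKO animals (Tox4;F/F;Lck+) had in addition a Cre transgene under the proximal Lck promoter. This promoter is active in the T lineage from the DN3 stage on, before the cells described here arise. The study reported efficient loss of the protein in Western blots of unsorted and sorted thymocytes of this cross. How many of the cells described here had lost Tox4 was not measured in these libraries. The floxed allele was made in C57BL/6 eggs, and animals were sex-matched littermates aged 6 to 8 weeks per the study's methods. The labels do not tie a library to a mouse, so p-values measure the spread between libraries. The comparison of control and cKO asks what the loss of Tox4, a regulator of PP1 phosphatases, does to this population.

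After positive selection, a CD4 thymocyte silences CD8 under Zbtb7b (ThPOK), spends some days in the medulla and then leaves. Klf2, a transcription factor, turns on S1pr1, the receptor through which cells follow sphingosine 1-phosphate into the blood. On the way the cell loses Ccr9 and Cd69, which keep thymocytes in the organ, gains the lymph node receptor Ccr7, and raises MHC class I and interferon-response genes. Cd40lg encodes the CD40 ligand of helper cells, and Igfbp4 is a marker of late CD4 thymocytes and recent emigrants.

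Of the members, between 88 (control 1) and 163 (cKO 2) per library held UMIs of both S1pr1 and Klf2. Between 57 and 107 held Klf2 alone, and between 1 and 8 held S1pr1 alone. The median member had 6, 7, 6 and 5 UMIs of the pair in control 1, control 2, cKO 1 and cKO 2. Cd4 was counted in 134, 227, 181 and 238 members of the same libraries, Zbtb7b in 63, 100, 68 and 91, and Cd40lg in 25, 64, 51 and 49. A single Cd8a or Cd8b1 UMI, which the rule allowed, was present in 92, 93, 96 and 86 members. The levels of the genes of the rule are a description of the choice and were not tested.

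Libraries of the same replicate number were alike in the share of deposited cells above the mitochondrial limit, with 48.3% and 46.1% in control 1 and cKO 1 and with 20.6% and 23.1% in control 2 and cKO 2. Members were shallower in both cKO libraries. The median member had 6217.5, 5961, 5372 and 4372 UMIs in control 1, control 2, cKO 1 and cKO 2, and the summed UMIs of the members were 944617, 1705377, 1197639 and 1324881. Pairs of libraries shared between 36 and 70 cell barcodes, none of them between members. Of the 879 members, 6 held at least 100 UMIs of myeloid and neutrophil marker genes, 4 in control 2 and 1 in each cKO library. These 6 had between 2 and 8 UMIs of CD3 and T cell receptor genes, against a median of 46 in the other 873, none of which had more than 33 myeloid or neutrophil UMIs. They met the rule but did not carry the T cell transcripts of the rest. By the same measure mature CD8 cells held 3, 1, 2 and 1 such droplets in control 1, control 2, cKO 1 and cKO 2, and immature CD4 cells 1, 1, 2 and 0. Comparisons between populations were repeated without the droplets of every population compared.

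Levels are given as CPM, the UMIs of a gene summed over the cells of a population in one library, scaled to a total of 1000000 UMIs. Igfbp4 (chr11:99041244-99054392, GRCm38), a marker the rule did not use, stood at 670 CPM in control 1, 565 in control 2, 564 in cKO 1 and 514 in cKO 2. In double-positive thymocytes, chosen by both coreceptors and no S1pr1 or Klf2, it was between 5.18 and 7.93 CPM. Because deeper cells show more genes, every cell was also thinned at random to 1500 UMIs. Igfbp4 was then seen in 36.3%, 34.7%, 35.3% and 29.9% of members, against 0.904% to 1.26% of double-positive cells, in which free RNA and true expression cannot be told apart. Without thinning the shares were 43.2% to 55.4% of members and 1.55% to 2.58% of double-positive cells. By this marker and by the fall of Itm2a and Ccr9 below, the chosen cells carried the transcripts their label calls for, apart from the 6 droplets.

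Around the threshold of 2 UMIs of S1pr1 and Klf2, cells with 1 such UMI that met every other criterion numbered 24, 45, 39 and 83 in control 1, control 2, cKO 1 and cKO 2, and members with exactly 2 numbered 16, 38, 32 and 48. Just outside, Igfbp4 was at 52.0, 52.5, 78.6 and 123 CPM. Just inside, it was at 307, 178, 213 and 339 CPM, and members with 4 or more UMIs had between 609 and 758 CPM. At 3 UMIs it was at 404, 167, 378 and 251 CPM, lower than at 2 in control 2 and cKO 2. Itm2a, a membrane protein of selected thymocytes, ran the other way, from between 804 and 1693 CPM just outside to between 440 and 890 CPM just inside and between 245 and 364 CPM at 4 or more. These steps come from the readout that chose the cells and are given without a test.

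Nearly all tested interferon-stimulated genes were higher in members than in immature cells, as described below, and 3 of their promoters are shown first because several share a sequence motif. The motif searched was TTTCNNTTTC on either strand, the core of the interferon-stimulated response element, to which the interferon-activated factor complex binds. In the 250 bases before the transcription start of RefSeq (GRCm38.p6), it was present in 978 of 32851 promoters (2.98%). Counted by gene, it was present in 936 of 27025 (3.46%). Of the 24 genes of the interferon list, 17 had a promoter in the table and 11 of these held the motif. The genes with a match were Bst2, Gbp2, Gbp7, Ifit1, Ifit3, Igtp, Irgm1, Isg15, Rsad2, Stat2 and Trim30a. The list was drawn up from genes known to respond to interferon, so the count describes the list and says nothing of binding in these cells. The sequences of 3 of them are written 5′ to 3′ on the strand of the gene, with the matches in capitals.
Ifit1, chr19:34640639-34640888, plus strand: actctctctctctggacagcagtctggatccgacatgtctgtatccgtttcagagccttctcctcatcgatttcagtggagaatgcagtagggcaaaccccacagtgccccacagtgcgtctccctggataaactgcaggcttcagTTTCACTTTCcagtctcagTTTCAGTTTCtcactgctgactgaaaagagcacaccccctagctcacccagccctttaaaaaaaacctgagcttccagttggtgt
Ifit3, chr19:34583279-34583528, plus strand: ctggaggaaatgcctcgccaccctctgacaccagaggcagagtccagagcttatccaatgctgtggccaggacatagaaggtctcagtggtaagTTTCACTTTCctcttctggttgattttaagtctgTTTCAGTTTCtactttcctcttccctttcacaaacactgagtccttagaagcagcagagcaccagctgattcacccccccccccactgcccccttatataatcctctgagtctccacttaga
Isg15, chr4:156200819-156201068, minus strand: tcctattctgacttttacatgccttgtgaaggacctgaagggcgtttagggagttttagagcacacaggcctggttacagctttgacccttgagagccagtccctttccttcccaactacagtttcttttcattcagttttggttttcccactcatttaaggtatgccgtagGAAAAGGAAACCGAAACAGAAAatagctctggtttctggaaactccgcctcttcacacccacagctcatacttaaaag
In Ifit1 the 2 matches began 104 and 85 bases before the start, in Ifit3 they began 156 and 122 bases before it, and in Isg15 there were 3 overlapping matches on the other strand.

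To see which genes went along with maturity, the members were compared with immature CD4 cells of the same libraries. Immature cells were 67, 127, 110 and 174 cells with Zbtb7b or Cd40lg, at most 1 Cd8 UMI and no S1pr1 or Klf2. UMIs were summed per library and tested with edgeR's quasi-likelihood test, with the library as a block and without the 11 genes of the rules. Since counts of those genes chose the cells, the test describes genes that accompany them. Immature cells needed a UMI of Zbtb7b or Cd40lg, while members could enter on Cd4 alone. The part of this in the differences was not tested. Members were the slightly deeper cells, with medians of 4372 to 6217.5 UMIs against 3872.5 to 5563. Of 7286 genes, 887 (12.2%) were higher and 583 (8%) were lower in members at an adjusted p under 0.05, and the median log2 difference over all genes was -0.01.

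Interferon-stimulated genes were higher in mature cells almost throughout the list. Of 23 tested, 22 rose, against 12.2% of all genes, with a median log2 difference of 1.09, and the other, Gbp2, had a log2 difference of 0.15. Ifit1 stood at 149, 163, 208 and 158 CPM in mature cells of control 1, control 2, cKO 1 and cKO 2, and at 27.8, 35.5, 58.3 and 47.0 CPM in immature cells. The 2 populations did not overlap, and the log2 difference was 2.13 ± 0.13 (SE, 4 libraries, edgeR adjusted p = 4.04e-10). Ifi27l2a, the most abundant gene of the list, was at 1916, 1587, 1509 and 1445 CPM against 526, 282, 298 and 369 CPM. Irf7, a transcription factor of the interferon response, had a log2 difference of 1.68, and Ifit3 one of 3.50 ± 0.35. Ifit3 shares sequence with Ifit3b, and reads of the 2 may not have been told apart. Isg15, a ubiquitin-like protein, was at 120, 65.7, 115 and 61.1 CPM against 45.5, 35.5, 48.3 and 29.9 CPM. The 3 genes whose promoters are printed above were thus higher in mature cells in 4 of 4 libraries.

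Most members held UMIs of the interferon list, of which Ifi27l2a was the most abundant gene. How much of this count was Ifi27l2a was not measured. In cells thinned to 1500 UMIs, the median member held 5 UMIs of the list in each of the 4 libraries, and the median immature cell held 2, 1, 1 and 1. Between 1.37% and 6.47% of members had none, against 23.9% to 40.2% of immature and 46.1% to 52.1% of double-positive cells. Less abundant genes of the list, such as Ifit1, were seen in fewer cells. Ifit1 was seen in 15.1%, 19.1%, 23.5% and 15.5% of members (29.1% to 37.7% without thinning), in 4.02% to 6.30% of immature cells and in 0.539% to 1.07% of double-positive cells.

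**Figure D1:**
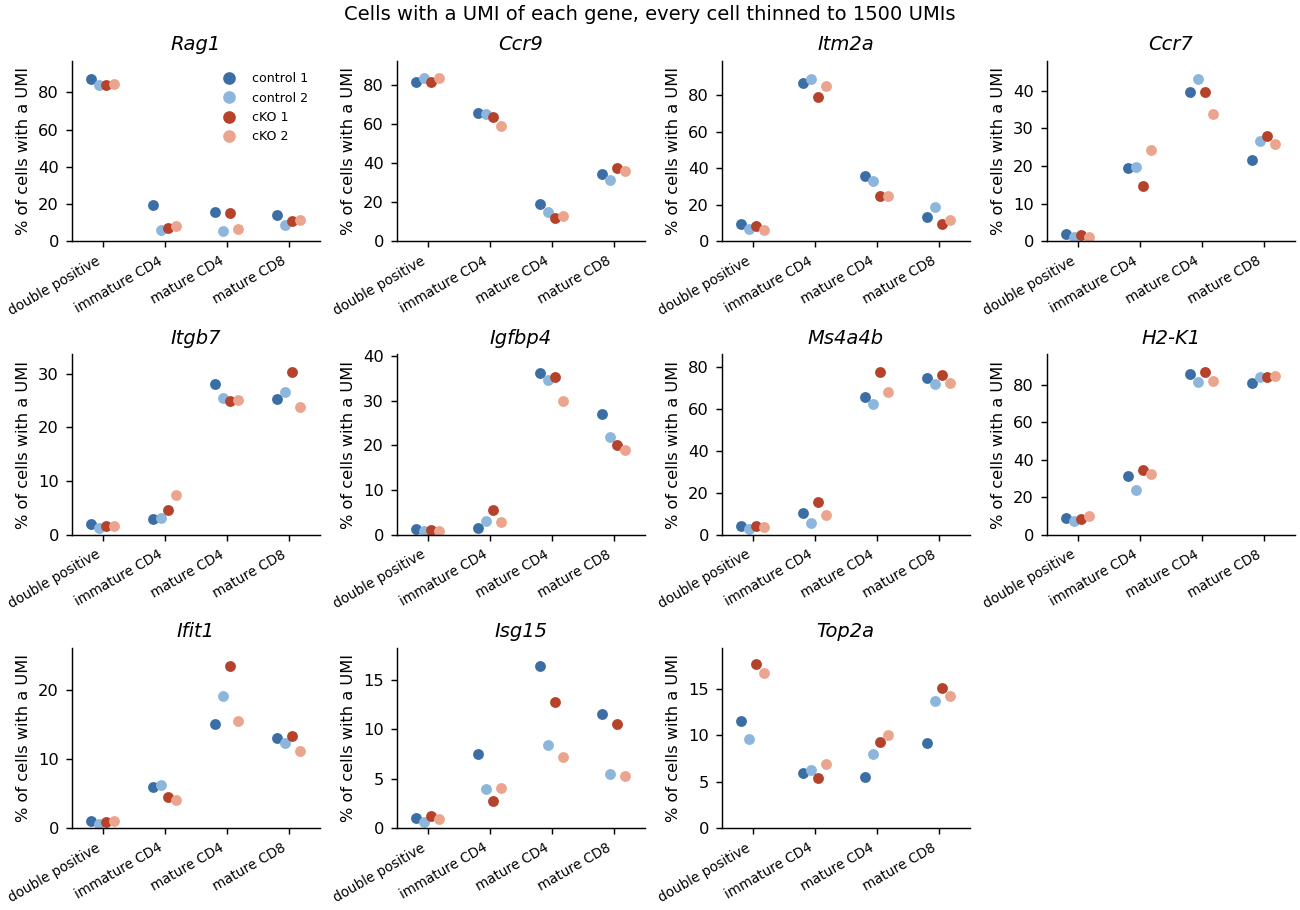
Percentage of cells with at least 1 UMI of each gene (vertical axes) in double-positive, immature CD4, mature CD4 and mature CD8 cells (horizontal axes), after every cell was thinned to 1500 UMIs, with 1 point per library. Igfbp4, Ms4a4b, Itgb7, H2-K1 and Ifit1 were seen in more mature than immature CD4 cells in all 4 libraries, and Itm2a and Ccr9 in fewer.

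MHC class I genes, which present peptides of the cell's own proteins, rose as broadly. Of 14 tested genes of class I molecules and of the machinery that loads them, 13 were higher, against 12.2% of all genes. The median log2 difference was 1.07. The class I heavy chain H2-K1 was at 1740, 1454, 1560 and 1473 CPM in mature cells of control 1, control 2, cKO 1 and cKO 2 against 461, 254, 445 and 448 CPM in immature cells, a log2 difference of 2.12 ± 0.09 (SE, edgeR adjusted p = 2.03e-12). B2m, the light chain shared by all class I molecules, differed by 1.14 on the log2 scale and H2-D1 by 1.51. H2-Q7 differed by 2.92, although the H2-Q genes are near-identical copies between which reads can be misassigned. Tap2, a subunit of the peptide transporter, had a log2 difference of 0.04 and did not pass the test.

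Most genes of the late maturation list were higher. Of 17 tested, 12 rose and 3 fell, against 12.2% and 8% of all genes. Ms4a4b, a membrane protein of mature T cells, was at 965, 915, 1179 and 964 CPM in mature cells of control 1, control 2, cKO 1 and cKO 2 and at 104, 48.8, 90.0 and 92.5 CPM in immature cells, a log2 difference of 3.76 ± 0.11 (SE, edgeR adjusted p = 5.55e-15). Igfbp4 had a log2 difference of 4.17 ± 0.17, Dapl1 of 4.03 ± 0.38 and Foxo1, a factor that acts upstream of Klf2, of 2.14 ± 0.13. The 3 that fell were Il7r (-0.69), the receptor for the survival cytokine IL-7, Bcl2 (-0.86), the survival protein, and Lef1 (-0.69), a partner of Tcf7. Il7r was at 223, 207, 285 and 247 CPM in mature cells and at 344, 371, 577 and 433 CPM in immature cells.

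Receptors of exit and homing moved both ways, with 6 of 14 tested higher and 5 lower, against 12.2% and 8% of all genes. Those that rose included the integrin Itgb7 with a log2 difference of 2.53 ± 0.13, the second sphingosine phosphate receptor S1pr4 with 3.01 ± 0.23 and Ccr7 with 1.07 ± 0.09. Those that fell included Ccr9 (-2.72 ± 0.07), Ccr4 (-3.41 ± 0.26), which guides cells into the medulla, Cd69 (-1.70 ± 0.16), which holds S1pr1 inside the cell, the oxysterol receptor Gpr183 (-1.75) and Itgal (-0.73), the alpha chain of the integrin LFA-1. Ccr4 was low in members of every library, between 1.06 and 8.80 CPM, against 35.4 to 87.2 CPM in immature cells. After thinning, Ccr7 was seen in 33.8% to 43.0% of members and in 1.16% to 1.83% of double-positive cells (69.1% to 86.1% and 2.42% to 3.82% without thinning).

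Genes of immature thymocytes fell in turn. Of 19 tested, 13 were lower and none was higher, against 8% of all genes lower. Itm2a was at 415, 456, 289 and 287 CPM in mature cells of control 1, control 2, cKO 1 and cKO 2 and at 2847, 3341, 2690 and 2480 CPM in immature cells, with a log2 difference of -2.85 ± 0.06 (SE, edgeR adjusted p = 1.19e-16). The early response genes of receptor signalling Nr4a1 (-1.70), Nr4a3 (-2.27) and Egr1 (-1.45) fell too, as did Tox (-1.27), a paralog of Tox4 needed for CD4 development. Rag1, a recombinase gene of double-positive cells, had a log2 difference of 0.05, and in members it was at 104, 34.6, 89.3 and 37.0 CPM. It was higher in both libraries with the replicate number 1, which also had the most cells above the mitochondrial limit. The part of free RNA in it was not tested.

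Over all genes 12.2% were higher and 8% lower in mature than in immature cells. The transcription factors of the lineage list gave 2 higher and 7 lower of 23. Gata3, which drives the CD4 fate, fell by 1.44 on the log2 scale, and Satb1, a chromatin organiser, fell by 1.19. Foxo1 and Foxp1 were the 2 that rose. The quiescence list had 11 of 16 higher, among them Klf3 (2.26), Tsc22d3 (2.01) and Pik3ip1 (1.06), and none lower. GIMAP GTPases, which T cells need to survive, had 4 of 8 higher, led by Gimap3 with 2.82 on the log2 scale, and 1 lower. Cytokine receptors had 5 higher and 2 lower of 18, with Tgfbr2 (1.19) and Il6ra (2.15) higher and the feedback inhibitor Socs1 lower (-0.90). Without the droplets rich in myeloid or neutrophil UMIs in either population, 1000 genes were higher and 712 lower of 7287, with 21 of 22 of the interferon list, 13 of 14 of MHC class I and 12 of 17 of late maturation higher, and 10 of 22 lineage factors lower.

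Proliferation genes were also higher in the mature cells. Of the study's 22 proliferation genes, which it scored on these same libraries, 16 were tested and 12 rose, against 12.2% of all genes. Mki67 was at 96.3, 58.6, 67.6 and 99.6 CPM in mature cells of control 1, control 2, cKO 1 and cKO 2 and at 17.7, 5.91, 16.7 and 15.7 CPM in immature cells, with a log2 difference of 2.69 ± 0.20 (SE, edgeR adjusted p = 5.67e-09). Top2a differed by 2.01 and Hmgb2 by 1.16. The signal came from few cells. Mki67 was counted in 17, 27, 30 and 37 members, with up to 34 UMIs in a single cell, and after thinning in 4.11% to 5.39% of members (10.8% to 14.7% without thinning), 0.787% to 2.87% of immature cells and 5.51% to 11.2% of double-positive cells, which include dividing cells. The median thinned member and the median thinned immature cell both held 2 or fewer UMIs of the 22 genes in every library, while single members held up to 30 and a single immature cell up to 22. The share of thinned cells with Mki67 or Top2a was higher in members than in immature cells in 3 libraries, and in control 1 it was 6.16% against 7.46%.

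The lists of T cell receptor signalling (4 higher and 8 lower of 28), NF-kappaB and survival (0 and 6 of 20), immediate early genes (5 and 5 of 18), p53 targets (2 and 0 of 11), elongation factors (0 and 1 of 21) and Tox4 with its partners and paralogs (1 and 1 of 7) had median log2 differences between -0.12 and 0.22. Of all genes, 12.2% were higher and 8% lower. Tox4 itself had a log2 difference of 0.16 ± 0.15 and did not pass the test. Cd28, the costimulatory receptor, fell by 0.90 on the log2 scale.

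Among single genes outside the lists, the largest rises in genes of at least 50 CPM included Smad7, an inhibitor of TGF-beta signalling, with a log2 difference of 3.41 ± 0.14, Emp3 with 3.09 ± 0.16 and Rasa3, a Ras inhibitor, with 2.99 ± 0.22. The largest falls included the adhesion molecule Chl1 (-2.91 ± 0.18), Hivep3 (-2.43 ± 0.10), Gadd45b (-2.11 ± 0.26) and Lztfl1 (-2.09 ± 0.10). Each lay on the same side in 4 of 4 libraries. Without the droplets rich in myeloid or neutrophil UMIs, 1000 genes were higher and 712 lower, 21 of 22 tested interferon genes and 13 of 14 MHC class I genes were higher, and the median of each list named here kept its sign.

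**Figure D2:**
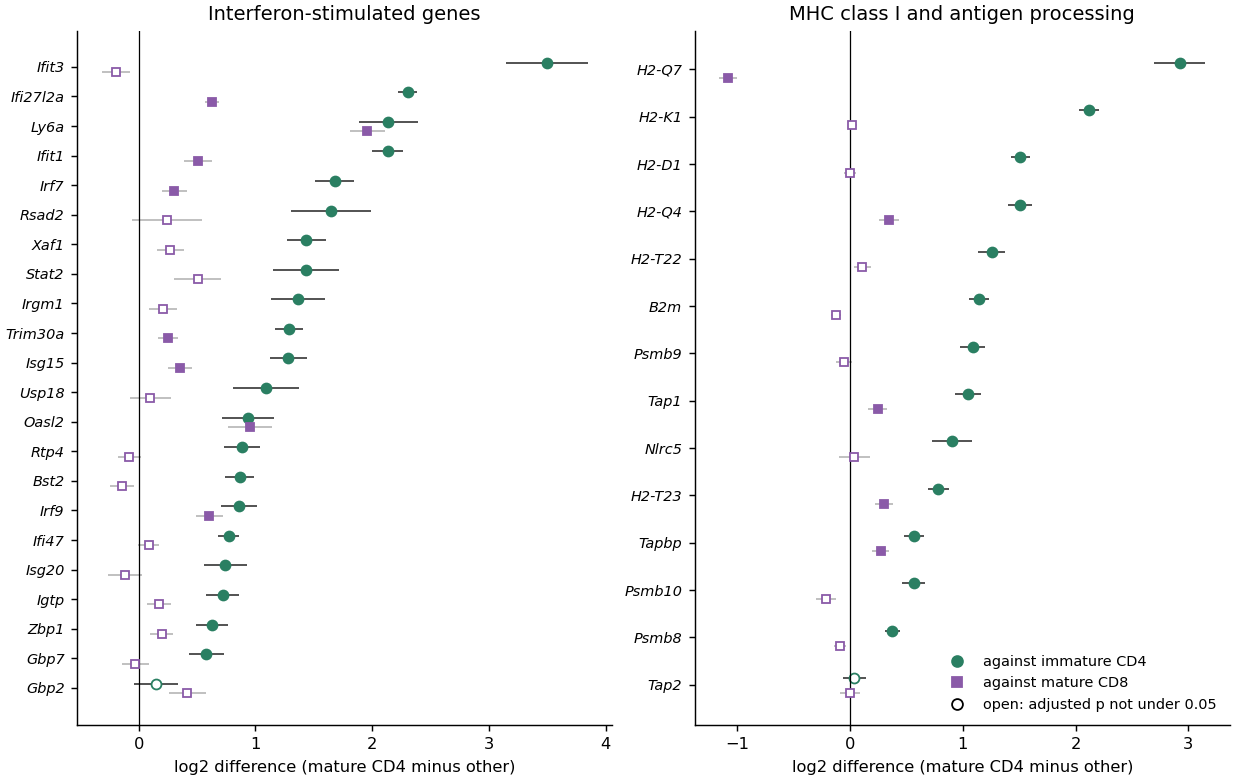
Log2 difference of summed UMIs (horizontal axes, with standard error bars) between mature CD4 cells and immature CD4 cells (circles) or mature CD8 cells (squares) for the tested genes of the interferon list but 1 (left) and the MHC class I list (right), from 4 libraries. Against immature cells nearly all genes lie to the right of 0, with open symbols for Gbp2 and Tap2, and against mature CD8 cells most of them lie near 0.

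The members were also compared with mature CD8 cells, chosen by the same S1pr1 and Klf2 threshold with at least 2 Cd8a and Cd8b1 UMIs and no Cd4, Zbtb7b or Cd40lg UMI (130, 146, 218 and 189 cells, with medians of 5675 to 8831 UMIs). Of 8209 genes, 818 (9.96%) were higher and 945 (11.5%) lower in mature CD4 cells, and the median log2 difference over all genes was 0.00. Igfbp4 was higher in CD4 cells by 1.14 ± 0.08 on the log2 scale (SE, edgeR adjusted p = 1.04e-10), while H2-K1 (0.02 ± 0.04) and H2-D1 (0.00 ± 0.05) did not pass the test. Of the MHC class I list 4 of 15 were higher and 2 lower, and of the interferon list 9 of 23 were higher, against 9.96% of all genes. Ly6a stood out among them, with 97.4, 52.8, 83.5 and 88.3 CPM in CD4 cells and 27.1, 12.4, 16.5 and 26.0 CPM in CD8 cells, a log2 difference of 1.96 ± 0.15. H2-Q7 was lower in CD4 cells (-1.08) and H2-Q6 too (-2.12). Without the droplets rich in myeloid or neutrophil UMIs, 891 genes were higher and 995 lower of 8150, with 11 of 23 of the interferon list higher, 3 of 15 of MHC class I lower and all 8 tested cytotoxic markers lower.

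Of 23 lineage factors 12 were higher in CD4 cells and 4 lower, against 9.96% and 11.5% of all genes. Runx1 (1.43 ± 0.12), Gata3 (0.76 ± 0.13) and Satb1 (0.62 ± 0.06) were among the higher ones. The lower ones were led by Runx3, the factor of the CD8 lineage. Runx3 was at 57.2, 44.0, 65.1 and 59.6 CPM in CD4 cells and at 239, 229, 274 and 243 CPM in CD8 cells, with a log2 difference of -2.17 ± 0.09 (SE, edgeR adjusted p = 9.02e-14). Of 8 tested markers of CD8 and cytotoxic cells, 7 were lower. Itgae, the alpha chain of CD103, was at 0, 4.69, 7.51 and 2.26 CPM against 106, 102, 136 and 147 CPM, and the NK receptor Klrd1 had a log2 difference of -4.50 ± 0.21. The rule required CD4 members, but not CD8 cells, to lack Nkg7, which goes with these genes. The part of this in their difference was not tested.

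The immune receptors Cd28 (1.27 ± 0.07), Cd5 (0.88 ± 0.08), Il6ra (1.47 ± 0.12) and Tnfrsf4 (2.54 ± 0.17) were higher in CD4 cells, as were Itm2a (1.75 ± 0.10), the integrin chain Itgb3 (2.56 ± 0.17) and Slfn5 (1.60 ± 0.11). Tnfrsf4 encodes OX40, a costimulatory receptor of helper T cells. Of the T cell receptor signalling list 11 of 28 were higher and 2 lower, against 9.96% and 11.5% of all genes. Of the cytokine receptors 7 of 20 were higher and 1 lower, the last being Il2rb (-1.37 ± 0.14). Ccr7 was higher (0.63 ± 0.07) and Ccr9 lower (-1.31 ± 0.09), while S1pr4 (-0.15 ± 0.11) did not pass the test.

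The proliferation list ran against the CD4 cells, with 15 of 19 lower and none higher, against 11.5% of all genes lower. Few cells carried the difference. The median thinned cell held 2 UMIs of the 22 genes in both populations of every library, and the 90th percentile was 4 to 5 UMIs in CD4 and 9.5 to 12 in CD8 cells. Mcm6, of the replicative helicase, had a log2 difference of -1.20 ± 0.11, Mcm5 of -1.16 ± 0.11 and Mki67 of -0.73 ± 0.11. Quiescence genes were higher in 11 of 16 with none lower, against 9.96% of all genes higher. Among them were Btg1 (0.44), Foxp1 (0.50) and Rbl2 (0.73). The other lists gave late maturation 11 higher and 2 lower of 18, exit and homing 3 and 6 of 14, GIMAP 6 and 1 of 8, immature thymocyte 5 and 5 of 18, NF-kappaB and survival 2 and 1 of 20, immediate early 6 and 2 of 18, p53 targets 3 and 0 of 11, elongation 2 and 2 of 21, and Tox4 with its partners 1 and 0 of 7. Genes with the largest falls outside the lists included Lcn4 (-3.75), Plac8 (-2.88) and Cxxc5 (-2.47). Ly6c1 was higher in CD4 cells by 4.01 on the log2 scale, though it shares reads with Ly6c2. It had only 19 to 23 UMIs per library in CD4 cells and 1 to 2 in CD8 cells.

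**Figure D3:**
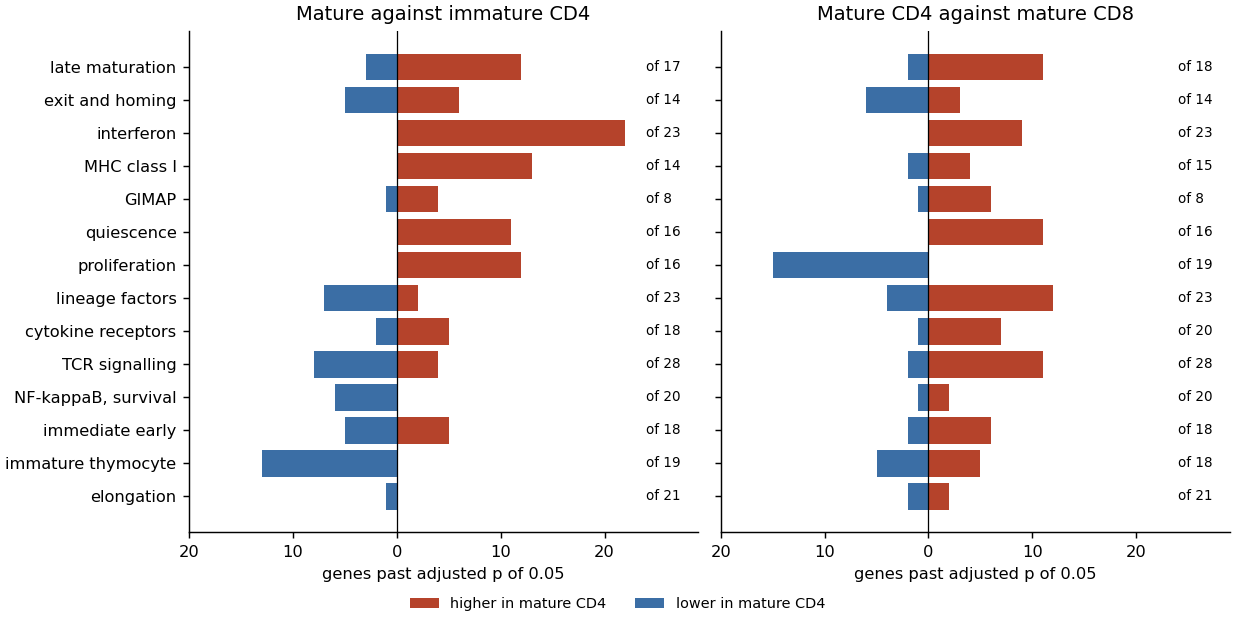
Number of genes of each list (horizontal axes) that were higher (right of 0) or lower (left of 0) in mature CD4 cells at an adjusted p under 0.05, against immature CD4 cells (left panel) and mature CD8 cells (right panel), with the number tested at the right edge. The proliferation list is on the higher side against immature cells (12 of 16) and on the lower side against CD8 cells (15 of 19).

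Marker lists of other cells were summed within the members. After the 6 droplets described above were left out, the summed level of the 12 macrophage, monocyte and dendritic markers was 158 to 239 CPM per library, that of the 10 B cell markers 181 to 217 and that of the 5 neutrophil markers 1.81 to 19.4, with Csf3r, Cxcr2, Itgax and Siglech at 0. With the droplets, the first of these reached 2041 CPM and the B cell markers 833 CPM in control 2, and the neutrophil markers 2793 CPM in cKO 1. Treg markers summed to 414 to 542 CPM, above the 348 to 382 CPM of all cells past the quality limits, cytotoxic markers to 176 to 260, innate-like and gamma-delta markers to 45.5 to 88.3, double-positive markers to 429 to 634 and epithelial markers to 28.7 to 60.1. Erythroid markers summed to 13.8, 18.2, 163 and 23.4 CPM, and memory T cell markers to 1152, 1594, 1805 and 1363 CPM, against 827 to 939 CPM in all cells past the limits. For the erythroid markers the high library was cKO 1, where 98 of the 116 UMIs of Hbb-bs came from 1 cell.

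The share of mature CD4 cells among captured cells overlapped between the genotypes, and cell numbers per thymus are not given by these libraries. Mature CD4 cells made up 2.63% of the cells past the quality limits in control 1 (146 of 5556, exact 95% binomial interval 2.22% to 3.08%), 2.96% in control 2 (2.61% to 3.34%), 3.18% in cKO 1 (2.77% to 3.64%) and 2.46% in cKO 2 (2.19% to 2.77%). The intervals cover counting error only. The mean was 2.79% ± 0.24 (SD, n = 2) in controls and 2.82% ± 0.51 (SD, n = 2) in cKO. The exact two-sided permutation test gave p = 1, where 2 against 2 libraries cannot go below p = 0.333. Within replicate numbers the share was 0.56 percentage points higher in cKO 1 than in control 1 and 0.50 points lower in cKO 2 than in control 2. After thinning to 1500 UMIs before the rule was applied, it was 1.17%, 1.01%, 1.31% and 0.895%.

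The ratio of mature CD4 to mature CD8 cells was 1.12 and 1.72 in controls and 0.936 and 1.47 in cKO, so the groups overlapped (exact permutation p = 0.667, two-sided). Within replicate numbers 1 and 2 the cKO value differed from the control value by -0.187 and -0.248. After thinning every cell to 1500 UMIs, controls had 1.33 and 1.34 and cKO 1.14 and 1.26, so the groups no longer overlapped (exact permutation p = 0.333, two-sided, the smallest possible here). With the stricter rule cKO was higher on average by 0.0663, and the groups overlapped. The ratio of mature to immature CD4 cells was 2.18 and 1.98 in controls and 1.85 and 1.60 in cKO. All cKO values lay below the controls, which gives the smallest p the design allows (exact permutation p = 0.333, two-sided). With every cell thinned to 1500 UMIs the same ratio was 0.783, 0.945, 0.913 and 0.656, and the groups overlapped. With a mitochondrial limit of 5% it was 4.69 and 4.29 in controls and 2.14 and 2.65 in cKO.

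**Figure D4:**
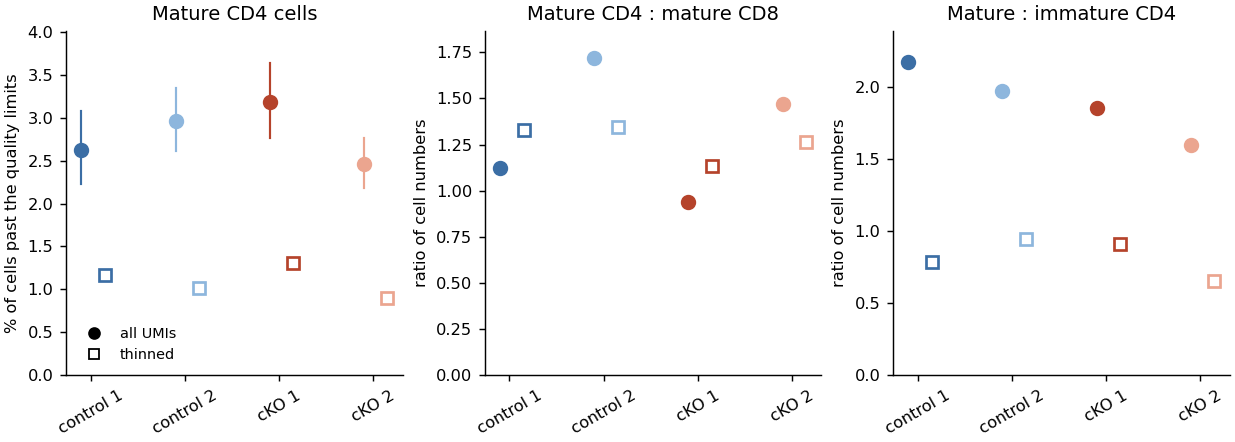
Percentage of mature CD4 cells among cells past the quality limits with exact 95% binomial intervals (left), mature CD4 cells per mature CD8 cell (middle) and mature per immature CD4 cell (right) in each library, from all UMIs (filled circles) and with every cell thinned to 1500 UMIs before the choice (open squares). The groups overlap in the left panel, the circles of the middle panel overlap while its squares do not, and the separation of the circles in the right panel is absent among the squares.

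Tox4 (chr14:52279146-52296401, GRCm38) was counted in mature CD4 cells at 58.2 CPM in control 1, 63.3 in control 2, 55.9 in cKO 1 and 58.1 in cKO 2. Both cKO values lay below both controls, by as little as 58.1 against 58.2 CPM, and such a separation in either direction was seen for 36% of all genes. The log2 difference was -0.12 ± 0.19 (SE) and did not pass the test. The 3′ end that this assay counts lies outside the floxed exons 4 to 6, so the level does not check the deletion.

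Between cKO and control, no gene of 8331 passed an adjusted p under 0.05 in mature CD4 cells (0%, edgeR's quasi-likelihood test on the UMI sums of 4 libraries, not paired), while 524 had an unadjusted p under 0.05. DESeq2's Wald test passed 2. With the replicate number as a block more genes passed, the genes named below among them, as given in the last section. The labels do not say that equal numbers mark a pair of mice. Leaving out control 1, control 2, cKO 1 or cKO 2 gave 6, 4, 0 and 16 genes, but each such fit sets 1 library against 2 and assumes that the lone library varies like the other group. When the 6 droplets rich in myeloid or neutrophil UMIs were left out, an alternative chosen after seeing the data, 3 of 8253 genes passed (0.0364%). They were Chd3, Itm2a and Tnfrsf4, each with an edgeR adjusted p of 0.044.

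Chd3 (chr11:69343273-69369406), the helicase of the NuRD chromatin remodelling complex, was at 356 and 357 CPM in controls and at 552 and 549 CPM in cKO. The 2 groups did not overlap, which was required of every gene named between genotypes and held for 36% of all genes. The log2 difference was 0.61 ± 0.11 (SE, n = 2 libraries per group, edgeR adjusted p = 0.193). It was counted in 86.1% to 87.0% of control and 88.5% to 92.6% of cKO members.

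Itm2a (chrX:107397099-107403376), whose transcript falls with maturity, was at 415 and 456 CPM in controls and at 289 and 287 CPM in cKO. Both cKO libraries lay below both controls, with a log2 difference of -0.62 ± 0.12 (edgeR adjusted p = 0.193). Tnfrsf4 (chr4:156013843-156016612) was at 112 and 116 CPM in controls and at 68.5 and 55.9 CPM in cKO, a log2 difference of -0.90 ± 0.17 (edgeR adjusted p = 0.193). With a mitochondrial limit of 5% the log2 difference of Tnfrsf4 was -0.13. It was counted in 40.4% and 34.7% of control and 26.5% and 19.4% of cKO members, whose depth was also lower.

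The other genes named by the rule had an adjusted p between 0.193 and 0.331, and their control and cKO libraries did not overlap, as was the case for 36% of all genes tested. Those higher in cKO were F13a1 (9.53 and 9.97 CPM in controls, 27.6 and 36.2 in cKO), the A subunit of coagulation factor XIII, and Mycbp2 (232 and 188 against 311 and 325), a ubiquitin ligase. Izumo1r, a folate receptor family member found on CD4 T cells, was at 141 and 160 CPM against 257 and 205. Vsir, the inhibitory receptor VISTA, was at 55.0 and 48.1 CPM against 82.7 and 89.8. Anxa2, Fam13b, Ifi27, Letm2, Pclaf and Tspoap1 had log2 differences between 0.65 and 1.78, and that of Pclaf turned to -0.11 with the stricter rule. Hbb-bs, a globin gene that shares reads with Hbb-bt, was at 96.9 CPM in cKO 1, nearly all of it in 1 cell, and between 4.23 and 11.3 in the other 3 libraries.

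Those lower in cKO included Relb (52.9 and 41.0 CPM in controls, 25.05 and 21.1 in cKO), a subunit of NF-kappaB, and Nrgn (60.3 and 59.2 against 33.4 and 24.2), a calmodulin-binding protein. Without the 6 droplets the log2 difference of Relb was -0.78 in place of -1.02. Tmem126a and Eci1, which encode mitochondrial proteins, had log2 differences of -1.34 and -2.71, and Ckb, a creatine kinase, one of -0.63. Actg1, cytoplasmic actin, was at 1972 and 2046 CPM against 1581 and 1494, and Eif4a1, a helicase of translation initiation, at 590 and 652 CPM against 482 and 432. These 2 have processed pseudogenes that can share reads. Ccdc9, Cox20 and Grk6 had log2 differences between -1.07 and -0.59.

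**Figure D5:**
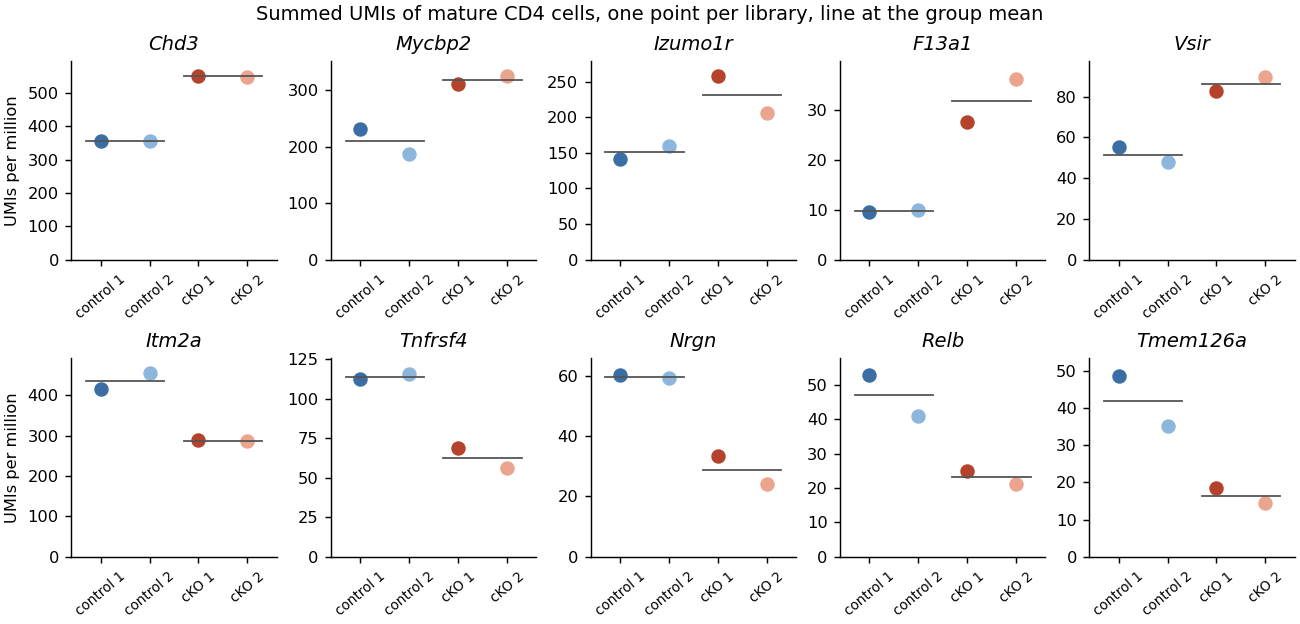
Level of 10 genes in mature CD4 cells (vertical axes, CPM of the summed UMIs of each library), with 1 point per library and a line at the mean of each group of 2. The upper 5 genes are higher and the lower 5 genes lower in both cKO libraries, and none passed the adjusted, unpaired test with all members included.

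No list had a member that passed the test between genotypes, against 0% of all genes, and the median log2 difference over all genes was -0.01. Without the 6 droplets Itm2a, of the immature thymocyte list, and Tnfrsf4, which is also a Treg marker, passed. The summed Treg markers, Tnfrsf4 included, were at 542 and 503 CPM in controls and 414 and 478 CPM in cKO, with a median of -0.36 (5 of 6 below 0, droplets included), and their part in the Tnfrsf4 difference was not tested. Cytotoxic markers were at 176 and 199 CPM in controls and 260 and 220 CPM in cKO (median 0.73, 4 of 4 above 0), and innate-like and gamma-delta markers had a median of 0.36 (4 of 4 above 0), with summed levels that overlapped between the groups. Late maturation had a median of 0.13 (14 of 19 above 0), with Klf3 at 0.57, Foxo1 at 0.36 and Igfbp4 at -0.21. Exit and homing had a median of 0.02, with Ccr7 at -0.31. The immature thymocyte list had a median of -0.13 (12 of 19 below 0), with Ccr9 at -0.39. The interferon list had a median of -0.04, with Ifit1 at 0.20, and MHC class I one of -0.09, with H2-K1 at -0.09. The NF-kappaB and survival list was at -0.17 (14 of 20 below 0), with Tnfaip3 at -0.74 and Bcl2 at 0.33, immediate early genes at -0.22 (14 of 19 below 0), and GIMAP at -0.21, with Gimap4 at -0.47. Of the immediate early genes, Fos had 1, 99, 3 and 35 UMIs and Junb was at 109, 556, 104 and 334 CPM in control 1, control 2, cKO 1 and cKO 2. Both genes were higher in both libraries with the number 2 than in those with the number 1, and the groups overlapped. The proliferation list was at 0.03, with Mki67 at 0.15 and Top2a at 0.38. Elongation factors were at -0.04, quiescence at 0.06, lineage factors at 0.11, T cell receptor signalling at -0.01, cytokine receptors at -0.04, p53 targets at 0.01 and Tox4 with its partners at -0.04.

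Whether the genotype difference of a gene was itself another in mature CD4 cells than in CD8 or immature CD4 cells was tested as an interaction. Against mature CD8 cells 21 of 8824 genes passed (0.238%), and 16 of them had over 50% of their UMIs among members in the 6 droplets, led by S100a8 and S100a9, whose UMIs were also high in mature CD8 cells of control 1. Without such droplets in either population 4 genes passed, among them Izumo1r, named here after its values were seen. Izumo1r was at 141, 160, 257 and 205 CPM in mature CD4 cells of control 1, control 2, cKO 1 and cKO 2, and at 96.7, 102, 92.1 and 68.7 CPM in mature CD8 cells, an interaction of 0.94 ± 0.19 on the log2 scale (SE, edgeR adjusted p = 0.00825, and 0.00586 without the droplets). It was counted in 30.8% and 39.0% of control and 53.4% and 41.4% of cKO members. In immature CD4 cells it was counted in 47.8% and 46.5% of control and 57.3% and 54.6% of cKO cells. A higher share in cKO was thus not particular to mature CD4 cells. Without cKO 1, which leaves 1 cKO library in each population, 6 genes passed this test, and DESeq2's Wald test passed none (12 at an unadjusted p under 0.05).

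Against immature CD4 cells 23 of 8017 genes passed (0.287%), 15 of them with over 50% of their UMIs in the droplets, and 7 passed without them. Nrgn was among both. It was at 60.3, 59.2, 33.4 and 24.2 CPM in mature cells of control 1, control 2, cKO 1 and cKO 2 and at 30.4, 22.2, 117 and 175 CPM in immature cells, so that the cKO libraries were lower in the first and higher in the second, with an interaction of -3.58 ± 0.37 on the log2 scale (SE, edgeR adjusted p = 2.06e-08, and 1.81e-22 without the droplets). The UMIs sat in few cells, 8, 17, 11 and 15 mature and 6, 10, 16 and 22 immature cells of the same libraries. Among mature cells, 1 cell held 23 of 57 UMIs in control 1 and 35 of 101 in control 2. In cKO 1 and cKO 2 the most in 1 mature cell was 10 of 40 and 10 of 32. Serpinb6a also passed both times, but 126 of its 135 UMIs in immature cells of cKO 1 came from 1 cell. Without control 2, which leaves 1 control library in each population, no gene passed (361 at an unadjusted p under 0.05), and DESeq2's Wald test passed 1.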

How the data were processed

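Thymocytes were profiled in 2 control and 2 cKO libraries. The deposited values are raw UMI counts per gene and cell, which the authors made with Cell Ranger (6.1.1 per the file headers) on mm10, without normalization or pooling.  Labels gave the groups and replicate numbers. The paper's description of animals was used for the genotype and age.

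Cells were filtered and chosen by the stated limits. No doublet was removed in the main analysis, and an alternative left out the 5% of cells with the highest Scrublet scores (scanpy 1.11.5, with 8% doublets assumed). Counts were summed per library and population and tested with edgeR 4.0.16 (R 4.3.3, TMM factors, filterByExpr, quasi-likelihood F test), with Benjamini-Hochberg adjustment over all genes tested and a threshold of 0.05. SE is the log2 difference divided by the square root of F. The 11 genes of the rules were left out. Shares and ratios were compared by exact permutation (scipy 1.17.1). DESeq2 1.42.0 was an alternative. The fits were tested on simulated data. Replicate libraries differed by more than sampling noise (chi-square per degree of freedom 2.35 between controls and 2.22 between cKO).

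Members and the 26 gene lists were chosen with earlier results of these data known. Genes named between genotypes are up to 12 per direction, called or of smallest p, whose groups do not overlap. Between populations they are the 10 called genes per direction with the largest change and at least 50 CPM, with up to 4 members of each list. Further list members were named after their values were seen. Gene positions are GENCODE M21 on GRCm38. Some list members are not reported here by name.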

Additional observations from a re-analysis of the deposited data

Results flagged for a closer look

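The genotype difference itself was tested between populations, and genes that passed were looked at again. Between mature CD4 and mature CD8 cells 21 genes passed. The 5 with the smallest edgeR adjusted p on the higher side were S100a8 (1.34e-24), S100a9 (3.81e-21), Retnlg (3.24e-16), Ngp (4.24e-14) and Camp (2.04e-11), and Irf8 (0.00911) was the single gene on the lower side. S100a8 had 3, 0, 1356 and 2 UMIs in mature CD4 cells of control 1, control 2, cKO 1 and cKO 2, and the 1 droplet of cKO 1 that was rich in neutrophil UMIs held all but 9 of that library's. In mature CD8 cells it had 3030, 1, 9 and 3 UMIs. Without the droplets rich in such UMIs in either population Irf8 did not pass, and the other 5 were too low to be tested.

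Between mature and immature CD4 cells 23 genes passed, among them S100a8 (edgeR adjusted p 5.84e-16), S100a9 (6.11e-14), Nrgn (2.06e-08), Lyz2 (5e-08), Cd63 (2.86e-06), Ctsh (6.81e-05) and Cd74 (0.000147). Lyz2 had 12, 424, 139 and 38 UMIs in mature cells and 3, 22, 414 and 11 in immature cells of the same libraries. Without such droplets in either population S100a8 and S100a9 were too low to be tested, and Lyz2 (interaction 0.94 in place of -4.67 on the log2 scale), Cd63 (-4.25 in place of -7.13) and Ctsh (-5.96 in place of -9.60) did not pass, while Nrgn did (edgeR adjusted p 1.81e-22). Cd74 passed again without the droplets rich in myeloid or neutrophil UMIs (edgeR adjusted p 6.16e-06). With the droplets it was at 50.8, 308, 55.9 and 52.8 CPM in mature cells and at 306, 60.6, 863 and 487 CPM in immature cells of control 1, control 2, cKO 1 and cKO 2. Without them mature cells of control 2 had 82 UMIs in place of 526. In immature cells 461 of 518 UMIs in cKO 1 and 271 of 342 in cKO 2 came from 1 cell each.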

How the results depend on the processing

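The count of genes between genotypes was 0, and it became 2 with DESeq2's Wald test, 80 of 14927 without a filter on low counts (37 higher and 43 lower), 2 with the stricter rule, 3 without the droplets rich in myeloid or neutrophil UMIs, and 0 to 16 with 1 library left out. With the replicate block it was 65 (24 higher and 41 lower), and all 24 genes named between genotypes passed. The study speaks of pairs of mice, but the labels do not say that replicate numbers mark them, and the deviations of same-numbered libraries from their group means had a correlation of 0.14 over 8331 genes, so the block is given as a hint only. The genes mature against immature CD4 (1470) became 658 with DESeq2 and 491 with a mitochondrial limit of 5%. Those of mature CD4 against CD8 (1763) became 506, 810 and, without the library block, 1096, and ran from 1136 to 1479 with 1 library left out. The interaction with lineage (21) became 0 with DESeq2, 34 without a filter, 13 at 5% mitochondrial UMIs, 4 without the droplets and 6 to 39 with 1 library left out. The interaction with maturity (23) became 1, 54, 14, 7 and 0 to 76 in the same order, and 50 with the stricter rule. The genotype difference in the share was 0.557 points within number 1 and -0.497 within number 2 (replicate block), against 0.0298 over both. That in the ratio of mature to immature cells (-0.352) was -2.10 at 5% mitochondrial UMIs and -0.0796 after thinning. Of 306 values of single named genes under the alternatives, 52 passed the test where the reported value had not, 253 kept their side, and Pclaf turned to -0.11 with the stricter rule. The causes were not tested. The genotype comparison rested on 2 libraries a group with 146 to 278 members each, which limits what it could resolve. Calls were not compared by UMI level.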
